A study of Mus musculus with 6 samples.

Results

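The genes described here were listed at an estimated count of 0 in all 3 libraries of one group of dystrophic mouse hearts and at 10 or more in all 3 libraries of the other. Of 50385 genes in the deposited table, 54 met this rule: 40 were at 0 with setanaxib and 14 were at 0 with vehicle. Mx1, which also meets it, is left out by the rule. They were chosen by the counts of this one comparison, so their group difference is a description and was not tested.

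Hearts came from male Mdx/Utrn dKO mice, which lack both dystrophin and its relative utrophin, and all groups share this genotype. Dosing by daily gavage began at an age of 2 to 3 months and lasted 12 weeks, with corn oil in the vehicle group and with setanaxib, an inhibitor of NADPH oxidases, at 60 mg/kg per day in the other group. Each group holds 3 libraries of RNA from whole hearts, numbered here in record order, and no wild-type heart is among them. The labels give each library its own number but do not call the libraries separate animals, so the p-values reflect variation among the 3 libraries of a group, which may be technical.

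A gene that falls from some reads to none is often read as switched off. In RNA sequencing a 0 can also stand for a transcript too scarce to be assembled or quantified, or for reads given to an overlapping gene. Low transcripts in bulk heart often come from rare cells, such as dividing cells, immune cells or stray epithelium, rather than from muscle cells, which do not divide in the adult.

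Libraries held 110803307 to 154003318 estimated counts, and 21136 to 22253 genes were above 0 in each. The 6 fixed heart muscle markers (Myh6, Actc1, Tnnt2, Tnni3, Ryr2 and Myl2) were above 0 in every library and summed to between 29106 and 40651 CPM (counts scaled to library size by the trimmed mean of M values, TMM). Setanaxib replicate 3 stood apart, with the atrial markers Myl7, Myl4 and Nppa summing to 2914 CPM against 66.5 to 568 in the others. Its lung epithelium markers Sftpc, Scgb1a1 and Sftpb summed to 602 CPM against 0 to 19.6. Setanaxib replicate 1 was at 0 alone, with 10 or more counts in each of the other 5 libraries, for 451 genes, where the other libraries were for 16 to 153.

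The 40 genes at 0 with setanaxib were 0.0794% of all rows, and 0.209% of the 19177 rows with 10 or more counts in all 3 vehicle libraries. The 14 at 0 with vehicle were 0.0278% of all rows, and 0.0755% of the 18541 rows with 10 or more in all 3 setanaxib libraries. These shares restate the rule, and nothing is read from them. With 1 library left out the rule asks for less and more genes meet it. The first count was 97 and 100 without vehicle replicates 1 and 3, and 72, 89 and 146 without setanaxib replicates 1, 2 and 3. The second was 58 and 22 without vehicle replicates 2 and 3, and 22, 80 and 33 without setanaxib replicates 1, 2 and 3.

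All 54 genes were low. The mean count over the 3 libraries where a gene was present ran from 13 to 172 among the 40, with a median of 44.5, and from 11.7 to 58 among the 14, with a median of 29. In CPM the medians were 0.333 and 0.225. Rows with 10 or more counts in all 3 libraries had median mean counts of 782 with vehicle and 833 with setanaxib. The plot of counts by gene shows the values in each library.

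**Figure D1:**
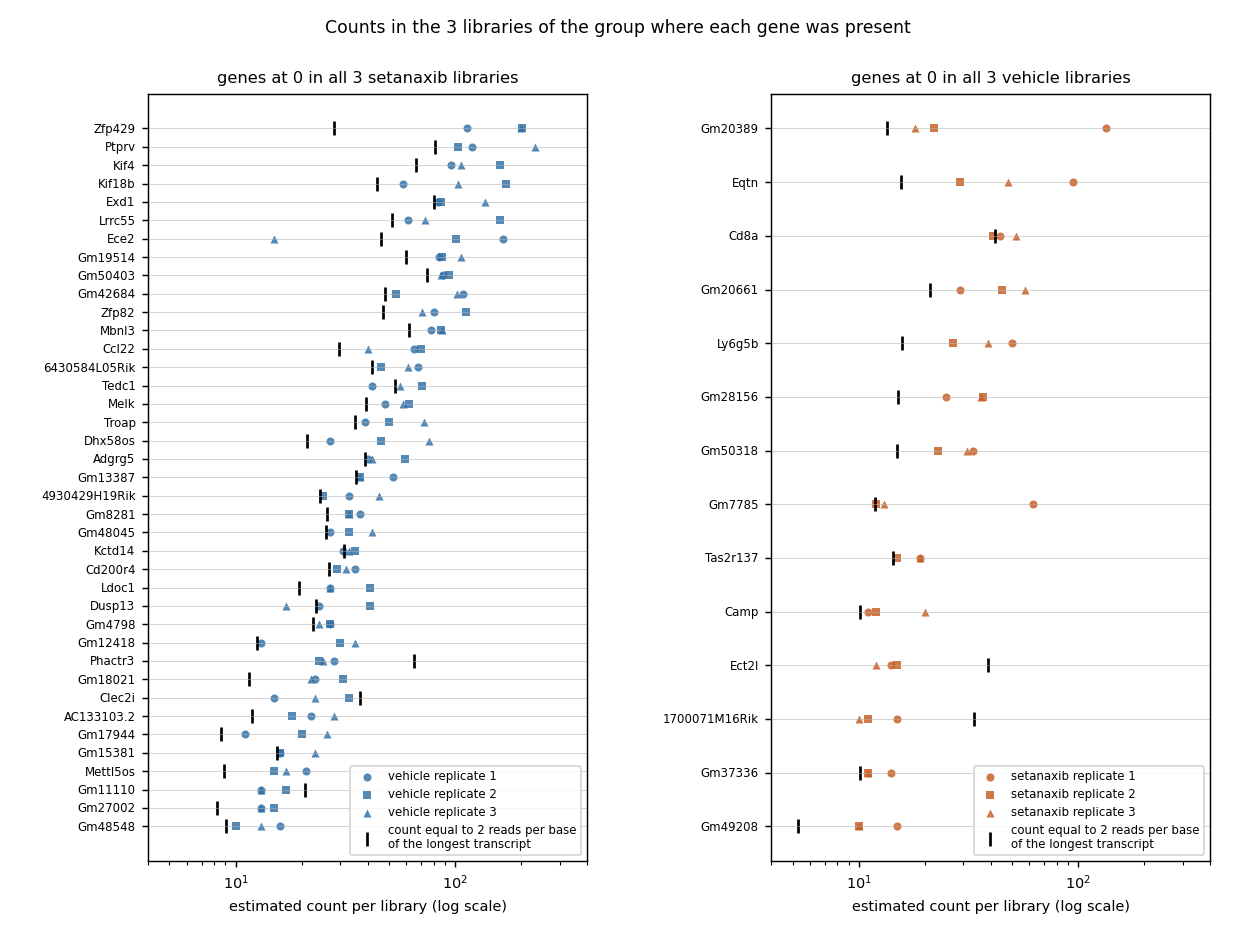
Estimated count (log axis) of each gene in the 3 libraries of the group where it was present, with a black bar at the count equal to 2 reads per base of its longest transcript. Genes at 0 with setanaxib are on the left and those at 0 with vehicle on the right. On the left most points lie close to their bar, with Zfp429 far above it. On the right Gm20389, Eqtn and Gm7785 lie far above their bar in setanaxib replicate 1.

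Counts above 0 did not run down to 1 for genes of ordinary length. An estimated count was turned into reads per base as the count times the read length of 150 bases, divided by the transcript length in GENCODE M21. Among 29424 genes with 1 annotated transcript, 7766 to 8414 per library were above 0, and only 0 to 3 of them lay under 2 reads per base. Between 7.27% and 10.5% lay from 2 to 3 reads per base, directly above this edge. The 1st percentile of counts above 0 accordingly grew with length, from 9 counts at 500 to 1000 bases to between 62.5 and 74 counts at 4000 to 8000 bases. Long genes thus had almost no values between 0 and such counts. The sources used here do not say which processing step set this edge, and what a 0 holds below it cannot be read from the table.

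**Figure D2:**
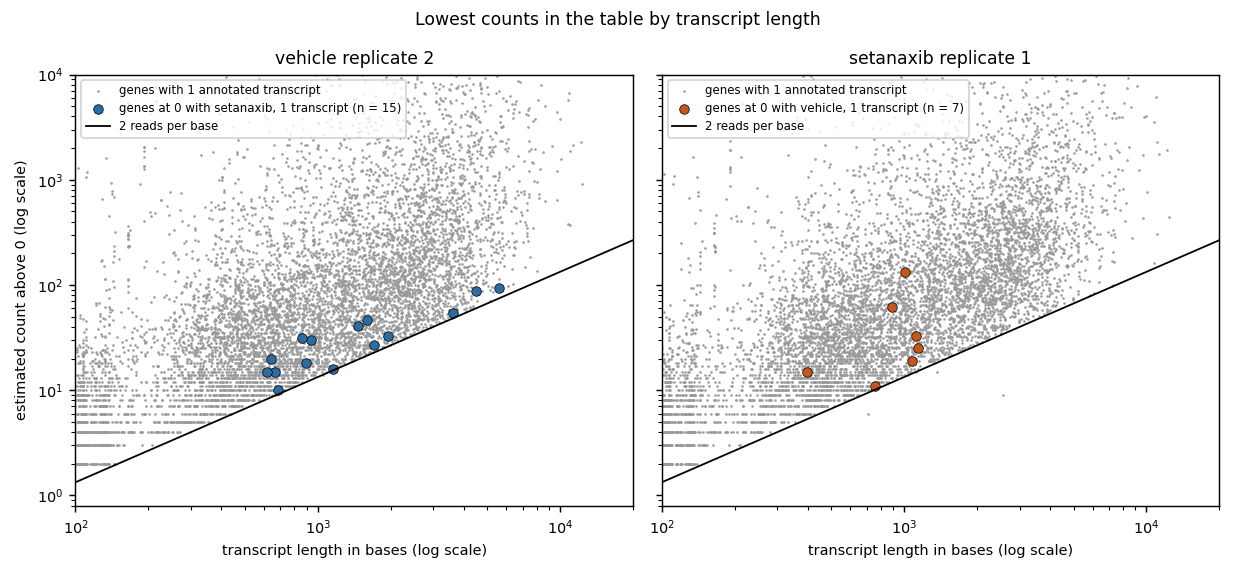
Estimated count above 0 against transcript length, both on log axes, for genes with 1 annotated transcript in vehicle replicate 2 and in setanaxib replicate 1, with a line at 2 reads per base. Grey points are all such genes, and coloured points are the 15 genes at 0 with setanaxib and the 7 at 0 with vehicle that have 1 transcript. Almost no grey point lies below the line, and most coloured points on the left lie just above it. On the right Gm20389 and Gm7785 lie far above it.

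Measured over the longest transcript, most of the 54 genes had few reads per base in the group where they were present. Mean reads per base on that length had a median of 2.95 among the 40 and 4.02 among the 14, and were under 4 for 33 of 40 and 7 of 14. Among all rows with 10 or more counts in all 3 libraries the median was 42.7 with vehicle and 45.1 with setanaxib, and 4.82% and 2.60% were under 4. Only 1 of the 40, Zfp429, held at least 4 reads per base in every vehicle library, and 0 of the 14 did in every setanaxib library.

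For genes with 1 transcript the edge can be set beside the difference. The 15 such genes at 0 with setanaxib had a mean vehicle CPM between 1.12 and 2.24 times the CPM that 2 reads per base would give in the setanaxib libraries, with a median of 1.60, and 12 of 15 were under 2. The 7 at 0 with vehicle were between 1.27 and 4.51 times, with a median of 2.21, and 2 of 7 were under 2. These ratios only state how far each gene lay above the edge. How far the genes fell in the other group was not tested. Genes with several transcripts have no single edge, since the expressed transcript is not known. Over the shortest annotated transcript the means were far higher for some, at 26.1 reads per base for Kif4, 35.3 for Mbnl3, 67.9 for Zfp429 and 94.2 for Ptprv.

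Genes near the edge were often at 0 in some library of the other group. Of 123 genes with 1 transcript and a vehicle mean from 2 to 3 reads per base, 70 were at 0 in 1 or more setanaxib libraries and 5 in all 3. At 6 to 10 reads per base these counts were 80 and 0 of 1128, and at 10 or more they were 39 and 0 of 3816. In the other direction, 13 of 39 genes from 2 to 3 reads per base were at 0 in 1 or more vehicle libraries and 2 in all 3, against 24 and 0 of 3916 at 10 or more. Zeros were thus rarer at higher levels in both directions, as the plot of zeros by level shows.

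**Figure D3:**
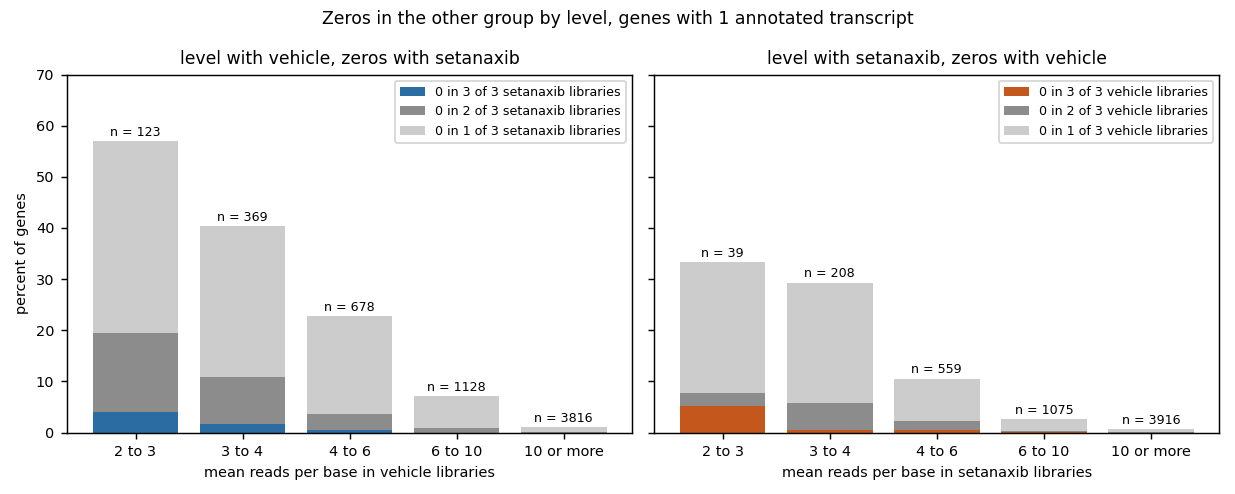
Percent of genes with 1 annotated transcript (y axis) that were at 0 in 1, 2 or all 3 libraries of the other group, by mean reads per base in the group named under each panel; n is the number of genes in the bin. The share with any 0 fell from 56.9% at 2 to 3 reads per base to 1.02% at 10 or more on the left, and from 33.3% to 0.613% on the right.

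By symbol, the 40 genes at 0 with setanaxib held 4 mitotic genes, 2 zinc finger genes, 17 predicted genes and 17 others. Among the 19177 rows with 10 or more counts in all 3 vehicle libraries, mitotic genes made up 0.391% and zinc finger genes 2.27%, while 5744 rows were predicted genes. The 14 genes at 0 with vehicle held 8 predicted genes and 6 others, with 0 mitotic and 0 zinc finger genes. Among the 18541 rows with 10 or more counts in all 3 setanaxib libraries, mitotic genes made up 0.307%, zinc finger genes 2.27% and predicted genes 29.3%. At such shares a set of 14 can easily hold 0 mitotic and 0 zinc finger genes, so nothing is read from these zeros. In GENCODE 21 of the 40 and 8 of the 14 code for protein, against 70.7% of the 19177 rows and 71.4% of the 18541. Processed pseudogenes numbered 6 and 1, against 7.53% and 7.46% of those rows. Antisense transcripts numbered 3 and 3, against 5.81% and 5.66%. The 40 lay on 18 chromosomes and 1 unplaced scaffold, with at most 5 on any one.

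Mitotic genes drive chromosome segregation, and many of them share promoter CCAAT boxes, bound by the factor NF-Y, and the cell cycle homology region (CHR) that DREAM and MYB complexes bind. The 4 mitotic genes at 0 with setanaxib are shown by the 250 bases before their RefSeq start (GRCm38.p6), 5′ to 3′ along the gene, to let the shared promoter letters be seen. Capitals mark CCAAT or its reverse complement ATTGG.
Kif4 (chrX:100625815-100626064, plus strand): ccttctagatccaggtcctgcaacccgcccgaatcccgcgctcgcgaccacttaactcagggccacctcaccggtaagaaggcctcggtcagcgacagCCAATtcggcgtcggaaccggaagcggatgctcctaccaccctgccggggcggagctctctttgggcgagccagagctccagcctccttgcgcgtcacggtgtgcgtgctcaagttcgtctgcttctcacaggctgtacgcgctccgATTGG
Kif18b (chr11:102925125-102925374, minus strand): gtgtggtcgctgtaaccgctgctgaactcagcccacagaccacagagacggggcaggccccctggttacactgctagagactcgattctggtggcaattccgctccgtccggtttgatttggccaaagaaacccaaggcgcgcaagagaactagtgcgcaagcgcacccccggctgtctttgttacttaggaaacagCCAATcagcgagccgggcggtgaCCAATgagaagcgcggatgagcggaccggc
Troap (chr15:99074723-99074972, plus strand): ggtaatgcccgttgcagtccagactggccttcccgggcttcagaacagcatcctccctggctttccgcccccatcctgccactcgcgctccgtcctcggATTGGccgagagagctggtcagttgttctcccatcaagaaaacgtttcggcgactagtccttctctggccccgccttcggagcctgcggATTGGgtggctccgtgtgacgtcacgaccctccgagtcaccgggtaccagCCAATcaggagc
Melk (chr4:44300667-44300916, plus strand): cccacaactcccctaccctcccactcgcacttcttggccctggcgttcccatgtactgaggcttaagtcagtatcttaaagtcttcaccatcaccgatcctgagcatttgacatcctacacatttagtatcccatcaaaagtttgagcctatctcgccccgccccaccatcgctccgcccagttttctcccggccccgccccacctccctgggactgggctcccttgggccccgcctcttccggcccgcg
CCAAT was found in 3 of these 4 windows on either strand, with 2 matches each in Kif4 and Kif18b, 3 in Troap and 0 in Melk. It was found in 33.8% of 32851 RefSeq promoter windows of the same length, and in 53 of 71 windows of the other mitotic genes described below. The CHR core TTTGAA (reverse TTCAAA) was in 0 of the 4 windows, in 16.0% of all windows and in 25 of the 71. A match is only a match of letters and does not show binding.

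Kif4, a kinesin that carries condensin along chromosomes and organises the spindle midzone, was at 96, 160 and 106 counts in vehicle replicates 1 to 3. Kif18b, a kinesin that trims spindle microtubules, was at 58, 171 and 103. Both were highest in vehicle replicate 2, the deepest library, and in reads per base they averaged 3.63 and 4.99.

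Melk, a kinase of proliferating cells, was more even, at 48, 62 and 58 counts. Troap, a spindle-associated protein, was at 39, 50 and 72. Their means were 2.84 and 3.05 reads per base of the longest transcript, and the lowest vehicle library was above 2 for each. Both have several transcripts, so no single edge applies to them. Kif4 shares 832 exon bases with Pdzd11 on the opposite strand, which held 879 to 1167 counts in every library, and no source used here gives the strand setting.

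The other mitotic genes were tested with edgeR's quasi-likelihood test, fitted over all 20472 genes kept by its filter. Of 75 tested, 56 were lower and 19 higher with setanaxib, with a median log2 fold change of -0.44 against 0.01 over all genes. None passed at an adjusted p of 0.05, where 0.00488% of all genes did. At an unadjusted p under 0.05 there were 15 lower and 1 higher, where 4.69% of all genes were lower at that p. DESeq2 called 5 lower and 1 higher, and limma-voom called 0. Over all genes DESeq2 called 2.9% of the 16795 it gave an adjusted p, and how many of the 75 had one was not counted. The groups did not overlap for 25 lower genes, 33.3% of the 75, against 9.46% of all genes. In bulk RNA, fewer dividing cells and less of these RNAs per cell cannot be told apart. The macrophage markers Adgre1, C1qa and Cd68 were also lower in each setanaxib library than in any vehicle library. On the log2 scale they were at -0.81 (SE 0.19), -0.57 (SE 0.13) and -0.99 (SE 0.28), with edgeR adjusted p of 0.383, 0.383 and 0.447. The fibroblast marker Col1a1 (-0.92, SE 0.29) and the endothelium marker Kdr (-0.64, SE 0.26) were likewise lower without overlap. The other markers of their lists, Pdgfra, Dcn, Pecam1 and Cdh5, overlapped between the groups. The part of these cell types in the mitotic values was not tested.

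The median of these 75 genes was -0.27 without setanaxib replicate 3, the library with the atrial and lung markers. It was -0.63 and -0.31 without setanaxib replicates 1 and 2, and -0.46, -0.32 and -0.48 without vehicle replicates 1, 2 and 3. In setanaxib replicate 3, 16 of the 75 were at 0. The other setanaxib libraries had 7 or fewer at 0 and the vehicle libraries 3 or fewer. By edgeR, the 16 at an unadjusted p under 0.05 became 10, 7 and 11 without vehicle replicates 1, 2 and 3. Without setanaxib replicates 1, 2 and 3 they became 21, 14 and 13. How far the makeup of setanaxib replicate 3 enters these values was not tested.

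Of these genes Kif23, a kinesin of the central spindle, had the lowest p. It was at 120, 193 and 153 counts in the vehicle libraries and at 60, 58 and 75 in the setanaxib libraries. Its mean was 1.14 ± 0.167 CPM (SD, n = 3) in the former and 0.494 ± 0.0668 CPM in the latter, which edgeR fitted as -1.21 on the log2 scale (SE 0.26, adjusted p = 0.356). Mki67, the proliferation antigen, was at 1351, 2344 and 1407 counts with vehicle and at 904, 773 and 495 with setanaxib (log2 fold change -1.16, SE 0.29, edgeR adjusted p = 0.389). Espl1, the protease separase that releases sister chromatids, had a log2 fold change of -0.84 (SE 0.21). For each of these, the highest setanaxib library lay below the lowest vehicle library.

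Cenpf, a kinetochore protein, went the other way, at 2075, 2604 and 3539 counts with vehicle and 4544, 6579 and 4126 with setanaxib (log2 fold change 0.94, SE 0.24, edgeR adjusted p = 0.396). Several other mitotic genes were at 0 in part of the setanaxib libraries only. Cdca8, a subunit of the chromosomal passenger complex chosen here after its values were seen, was at 70, 82 and 91 counts with vehicle and at 0, 27 and 0 with setanaxib. It missed the rule by 1 library.

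**Figure D4:**
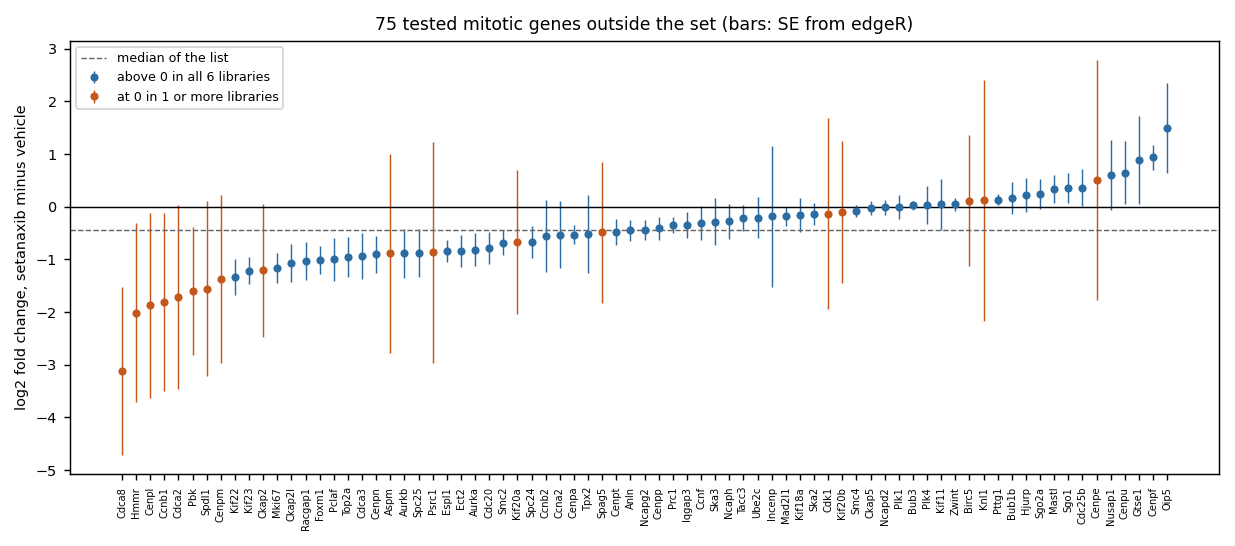
Log2 fold change, setanaxib minus vehicle, with its SE from edgeR (y axis) for 75 tested mitotic genes outside the set (x axis, ordered by value). Orange marks the 18 genes at 0 in 1 or more libraries, and the dashed line marks the list's median of -0.44.

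Zinc finger genes of the KRAB family encode DNA-binding repressors, many of which silence transposons. Zfp429 was the highest of all 54 genes, at 113, 203 and 199 counts in vehicle replicates 1 to 3 and 0 in each setanaxib library. It averaged 12.2 reads per base, and its mean of 1.26 ± 0.288 CPM (SD, n = 3) was 5.81 times the CPM that 2 reads per base of its longest transcript would give with setanaxib.

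Zfp429 has a close relative in the table. Its longest transcript aligned to Rsl1, a zinc finger repressor of liver genes, with 93.4% identity over 1766 bases. Rsl1 was at 395, 445 and 340 counts with vehicle and 225, 62 and 322 with setanaxib (log2 fold change -0.91, SE 0.55, edgeR adjusted p = 0.722), with no overlap of the raw counts. Zfp459, the nearest gene on one side in RefSeq, ran the other way, at 0, 61 and 0 counts with vehicle and 135, 70 and 54 with setanaxib (log2 fold change 2.24, SE 1.72, edgeR adjusted p = 0.793, and 1.66 to 9.44 with 1 library left out). Sharing of reads between such relatives was not tested.

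Zfp82 was at 80, 112 and 71 counts with vehicle. It shares 34.2% of its exon bases on the same strand with the predicted gene Gm26920, which was at 0, 78 and 0 counts with vehicle and at 39, 63 and 95 with setanaxib. In 5 of the 6 libraries only one of these genes was above 0, but in the 3 setanaxib libraries the rule sets Zfp82 to 0. Of the vehicle libraries, replicates 1 and 3 held Zfp82 alone and replicate 2 held both. Zfp82 and Gm26920 summed to 80, 190 and 71 counts with vehicle and 39, 63 and 95 with setanaxib. The groups thus overlapped once both genes were counted.

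Beyond these, 440 zinc finger genes were tested, 204 lower and 236 higher, with a median log2 fold change of 0.02. None passed edgeR's threshold, and 27 were at an unadjusted p under 0.05 (20 higher, 7 lower), where 8.46% of all genes were. DESeq2 called 2 of the 440, both higher, and limma-voom called 0. Over all genes DESeq2 called 2.9% of the 16795 it gave an adjusted p. Not all of the 440 had one, since Zfp459 did not, so the shares have unlike bases. Without 1 library the 27 became 9, 8 and 14 without vehicle replicates 1, 2 and 3, and 44 and 45 without setanaxib replicates 2 and 3. Zbtb22, Zfp869, Zfp445 and Zfp655 had the lowest p and were higher by 0.45, 0.34, 0.40 and 0.41 on the log2 scale, with SE from 0.10 to 0.12 and edgeR adjusted p from 0.370 to 0.464. Of the 440, 6, 1 and 2 were at 0 in vehicle replicates 1 to 3, and 14, 3 and 3 in setanaxib replicates 1 to 3. The median over all 440 was thus near 0, but zinc finger genes as low as Zfp429 and Zfp82 were not tested apart.

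Ece2, a protease that can process endothelin, was the least even gene of the set, at 165, 101 and 15 counts in vehicle replicates 1 to 3. It shares 57.5% of its exon bases on the same strand with Gm49333, which was at 0, 0 and 134 counts with vehicle and 58, 95 and 67 with setanaxib. Counts of both together were 165, 101 and 149 with vehicle and 58, 95 and 67 with setanaxib. In CPM the sums were 1.36, 0.691 and 1.10 with vehicle and 0.456, 0.723 and 0.508 with setanaxib. The groups of this sum thus did not overlap in raw counts but did once scaled to library size. These sums are of whole genes, and which exons the reads lie on is not known.

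**Figure D5:**
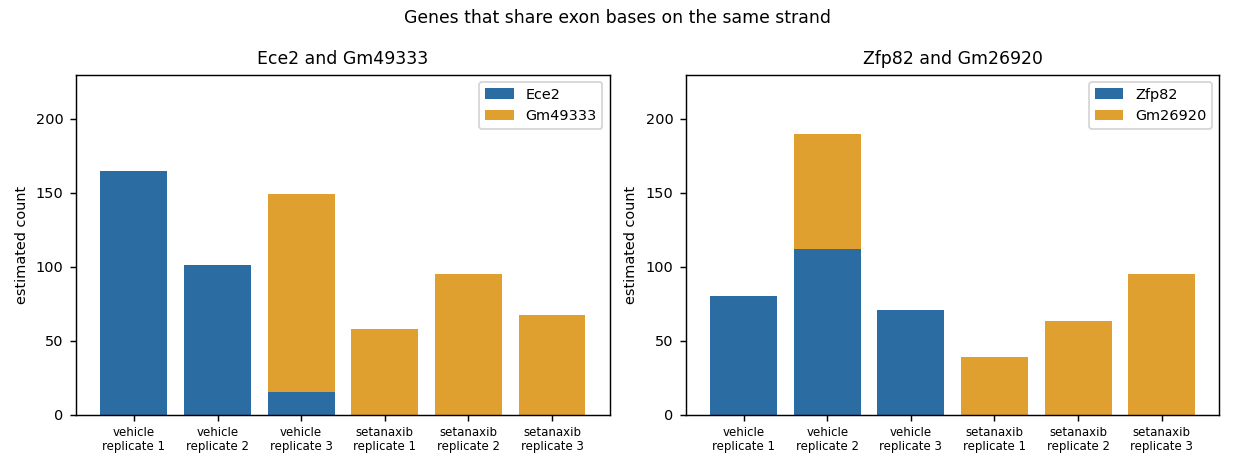
Estimated counts (y axis) per library (x axis) for Ece2 with Gm49333 and for Zfp82 with Gm26920, stacked, each pair sharing exon bases on the same strand. By the rule, all setanaxib counts of both pairs are listed under the predicted gene. Ece2 and Zfp82 hold all counts in 2 of 3 vehicle libraries each.

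Among the 40 genes, 11 share exon bases with another gene of the table, 9 of them with a gene on the opposite strand, and among the 14, 4 do. Without those genes 29 and 10 remain. Ptprv, a receptor phosphatase that is not among these 11, was at 119, 103 and 232 counts with vehicle. Its RefSeq span overlaps Ptpn7, a phosphatase of blood cells, but in GENCODE the spans do not overlap and no exon bases are shared. Ptpn7 was at 252, 550 and 291 counts with vehicle and 56, 166 and 160 with setanaxib (log2 fold change -1.45, SE 0.47, edgeR adjusted p = 0.490). Dhx58os, transcribed opposite to the viral RNA sensor gene Dhx58, was at 27, 46 and 76 counts, while Dhx58 was at 137, 358 and 171 with vehicle and 148, 103 and 211 with setanaxib.

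Immune genes were among the rest. Ccl22, a chemokine of macrophages and dendritic cells, was at 65, 70 and 40 counts with vehicle, and its partner Ccl17 (chosen after its values were seen, as are the other relatives named here and below) was at 17, 14 and 0 with vehicle and 13, 0 and 10 with setanaxib. Cd200r4, a receptor of the CD200 receptor family, was at 35, 29 and 32. Its relative Cd200r1 was at 124, 120 and 62 with vehicle and 0, 63 and 45 with setanaxib, which overlaps. Adgrg5, an adhesion receptor of blood cells, was at 40, 59 and 42, and 38.9 counts equal 2 reads per base of its longest transcript. The macrophage markers Adgre1, C1qa and Cd68 summed to 58.8 to 76.8 CPM with vehicle and 35.8 to 45.5 CPM with setanaxib, and their part in these zeros was not tested.

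Mbnl3, a muscleblind splicing factor, was at 78, 86 and 87 counts with vehicle, or 2.70 reads per base. Its paralogs Mbnl1 and Mbnl2 held 27541 to 38765 counts in every library, and edgeR fitted -0.07 (SE 0.08, adjusted p = 0.882) for Mbnl1 and 0.17 (SE 0.13, adjusted p = 0.788) for Mbnl2 on the log2 scale.

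Lrrc55, an accessory subunit of the BK potassium channel, was at 61, 160 and 73 counts with vehicle, and the channel gene Kcnma1 was at 0 in 5 libraries and at 8 in setanaxib replicate 3. Exd1, a gene of germline small RNA silencing, was at 84, 86 and 137, which for its longest transcript of 6042 bases is 2.54 reads per base. Tedc1, a centriole protein that works with delta and epsilon tubulin, was at 42, 71 and 56 counts. Its partner Tedc2 held 235 to 307 counts in every library, which edgeR fitted as 0.21 on the log2 scale (SE 0.17, adjusted p = 0.807). Tubd1, delta tubulin, was at 396, 477 and 458 counts with vehicle and 363, 295 and 339 with setanaxib, without overlap (log2 fold change -0.37, SE 0.16, edgeR adjusted p = 0.615). Tube1, epsilon tubulin, was at 41, 63 and 42 with vehicle and 76, 0 and 0 with setanaxib. Kctd14 was at 31, 35 and 33, and 31.2 counts equal 2 reads per base of its longest transcript.

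The 5 other named genes without a predicted symbol, Ldoc1, Dusp13, Phactr3, Clec2i and Mettl5os, were at 15 to 41 counts in the vehicle libraries. Of the 17 predicted genes the highest were Gm19514 at 85, 87 and 107 counts, Gm50403 at 88, 94 and 86, Gm42684 at 109, 54 and 102, and 6430584L05Rik at 68, 46 and 61. The first 3 of these have 1 transcript of 3615 to 5583 bases each, on which 2 reads per base come to 48.2 to 74.4 counts. The other 13 were at 10 to 52 counts.

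Some predicted genes are copies of expressed ones. Gm4798, at 27, 27 and 24 counts with vehicle, aligned over its whole length to Etv5 with 98.6% identity. Etv5 encodes a transcription factor and was at 2764, 3814 and 3675 counts with vehicle and 1855, 2745 and 2643 with setanaxib (log2 fold change -0.45, SE 0.16, edgeR adjusted p = 0.530). Gm12418, at 13, 30 and 35 counts, aligned to Dimt1 with 98.8% identity, and Dimt1 was at 428 to 537 with vehicle and 350 to 481 with setanaxib. Counts of such copies can include reads of the parent gene. In all, 3 of 39 genes aligned on the setanaxib side and 1 of 14 on the vehicle side matched another gene at 95% identity or more over at least 50% of the transcript. The match on the vehicle side was of Gm50318 to Mzb1. These genes share exon bases on the same strand, so this match is an overlap and not a separate copy.

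On the other side, 6 genes with a name of their own were at 0 with vehicle. Eqtn, a protein of the sperm acrosome, was at 95, 29 and 48 counts in setanaxib replicates 1 to 3. Ly6g5b, a small surface protein encoded in the MHC region, was at 50, 27 and 39. It overlaps the kinase subunit gene Csnk2b in RefSeq but not in GENCODE. Csnk2b held 6930 to 9485 counts in every library, and edgeR fitted -0.03 on the log2 scale (SE 0.11, adjusted p = 0.978). The highest library was setanaxib replicate 1 for Eqtn and Ly6g5b, and so it was for 9 of the 14 genes.

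Cd8a, the co-receptor of cytotoxic T cells, was at 44, 41 and 52 counts with setanaxib, a narrow range that averages 2.19 reads per base of its longest transcript. The T cell markers Cd3e and Cd3g were at 0 in all 6 libraries. Cd4, which other cells also express, was at 62, 119 and 71 with vehicle and 62, 63 and 74 with setanaxib. Cd8b1, the partner chain, was at 21 counts in vehicle replicate 2 and 22 in setanaxib replicate 3, and at 0 elsewhere. None of these 4 T cell genes showed the pattern of Cd8a.

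Camp, the cathelicidin peptide of neutrophils, was at 11, 12 and 20 counts with setanaxib, and 2 reads per base come to 10.1 counts. The neutrophil genes S100a8 and S100a9 were at 24, 156 and 24 and at 18, 93 and 40 counts with vehicle, and at 85, 128 and 0 and at 37, 68 and 11 with setanaxib. Both overlapped between the groups. Of 2 further neutrophil genes, Ngp was at 40 counts in setanaxib replicate 1 and at 0 in the other libraries, and Ltf was at 0 in all 6. Tas2r137, a bitter taste receptor, was at 19, 15 and 19, and Ect2l, a relative of the cytokinesis gene Ect2, at 14, 15 and 12.

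Of the 8 predicted genes at 0 with vehicle, Gm20389 varied most, at 134, 22 and 18 counts with setanaxib. It shares 22.2% of its exon bases with Erich3, a gene of motile cilia on the opposite strand. Erich3 was at 285, 351 and 391 counts with vehicle and at 2566, 526 and 884 with setanaxib, and was highest in the same library (log2 fold change 2.02, SE 0.59, edgeR adjusted p = 0.452). The value was 1.07 without setanaxib replicate 1, and DESeq2 gave 2.02 with an adjusted p of 0.0211. Gm7785, at 62, 12 and 13 counts, was also highest in setanaxib replicate 1.

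Gm20661 was at 29, 45 and 57 counts with setanaxib, and shares 26.4% of its exon bases with Cdhr4 on the same strand. Cdhr4 was at 35, 66 and 62 with vehicle and 76, 24 and 459 with setanaxib. Gm28156, which lies opposite the amine oxidase gene Aoc3 with 0 shared exon bases, was at 25, 37 and 36. Gm50318 was at 33, 23 and 31. It shares 62.3% of its exon bases on the same strand with Mzb1, a chaperone of antibody-producing cells. Mzb1 was at 17, 45 and 19 with vehicle and 30, 26 and 15 with setanaxib. It also shares 37.7% on the same strand with Spata24, so Gm50318 has more than 1 partner. Spata24 was at 144, 166 and 166 with vehicle and 168, 172 and 136 with setanaxib. Counts of Gm50318 and Mzb1 together were 17, 45 and 19 with vehicle and 63, 49 and 46 with setanaxib, without overlap. The rule itself sets Gm50318 to 0 with vehicle, so nothing is read from this sum. Mzb1 alone overlapped between the groups. The other 3 predicted genes, Gm37336, 1700071M16Rik and Gm49208, were at 10 to 15 counts.

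Neighbouring genes were taken from RefSeq, where 42 of the 54 genes were found. Overlapping genes that could be tested numbered 6 for genes at 0 with setanaxib and 4 for genes at 0 with vehicle, and nearest genes 21 and 12. By edgeR none of these neighbours passed, and 2 were at an unadjusted p under 0.05, Erich3 and Ptpn7, where 8.46% of all genes were. Overlapping genes had a median log2 fold change of -0.38 (5 lower, 1 higher) for genes at 0 with setanaxib and 0.61 (1 lower, 3 higher) for genes at 0 with vehicle. Nearest genes had a median log2 fold change of -0.08 beside genes at 0 with setanaxib and 0.09 beside genes at 0 with vehicle. Aplnr, the apelin receptor gene next to Lrrc55, was at 3850, 5069 and 3282 counts with vehicle and 532, 2306 and 2277 with setanaxib (log2 fold change -1.22, SE 0.52, edgeR adjusted p = 0.609).

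Values just inside and just outside the rule were alike. On the vehicle side the lowest genes inside it were Gm48548 at 16, 10 and 13 counts and Gm17944 at 11, 20 and 26. Gm14523 at 11, 9 and 24 and 9430069I07Rik at 12, 9 and 9 were just outside. On the setanaxib side Gm49208 at 15, 10 and 10 and 1700071M16Rik at 15, 11 and 10 were inside, and Gm13863 at 41, 9 and 11 and 2900076G11Rik at 26, 9 and 12 outside.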

How the data were processed

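Heart RNA was measured in 6 libraries, 3 per group. The authors deposited estimated counts per gene for 50385 genes, all of them whole, so no rounding was needed, and with totals that differ between libraries (110803307 to 154003318). The design assumed raw counts, and the same tests were kept. The build was GRCm39 and the tools were DESeq2 1.42.0, featureCounts 2.0.1, STAR 2.5.4b and FastQC 0.11.9, per the submitters' processing notes. What each tool did is not said there. Gene names, per the file headers, look like output of StringTie's count script.

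The genes and lists were chosen with earlier results of these data known. The rule is a count of 0 in all 3 libraries of one group and 10 or more in all 3 of the other. Classes follow symbols, with predicted genes first. The text names every mitotic and zinc finger gene of the set, up to 12 others and 4 predicted ones per direction by mean count, those nearest the rule's limit, up to 12 neighbours by lowest p, and the 4 list genes of lowest p where none passed. In R 4.3.3, genes kept by edgeR 4.0.16 (filterByExpr, minimum 10 counts) numbered 20472, scaled by TMM, and were tested with its quasi-likelihood F test, two-sided, with Benjamini-Hochberg adjustment at 0.05. Alternatives used DESeq2 1.42.0 and limma 3.58.1. The edgeR step was run on simulated data in which only genes with a mean above 1 CPM were changed. That run therefore does not cover changes in genes as low as those of the set. Transcript lengths and exons came from GENCODE M21 (GRCm38) by Ensembl ID, for 50176 of 50385 genes and all 54 of the set; since the files use GRCm39, no coordinates are given apart from those of the promoter windows, taken from RefSeq (GRCm38.p6). RefSeq spans gave neighbours. Copies were sought with BLAST 2.17.0, at 95% identity over 50% of the transcript. Values of 1 gene of the set and 1 neighbour are not reported here.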

Additional observations from a re-analysis of the deposited data

How the results depend on the processing

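The number of genes at 0 with setanaxib, 40, was 52 and 29 with a minimum of 5 or 20 counts, 36 with 0.1 CPM, and 40 with at most 2 counts taken as absent. The 14 at 0 with vehicle became 20 and 6, 8, and 14 under the same changes. With at least 4 reads per base in every library, a limit chosen after seeing the data, 1 and 0 remained. Leaving out 1 library gave 48 to 146 and 19 to 80 genes, since the rule then asks for fewer libraries. The 1 gene that edgeR called over all genes, which is not in the set, became 487 calls with DESeq2 (184 higher, 303 lower) and 0 with limma-voom, and 0 to 1 without 1 library, where the cause was not tested. DESeq2 called 2 zinc finger and 6 mitotic genes where edgeR called 0. All 108 refits of 12 neighbouring genes, which left out limma-voom, kept the direction. DESeq2 gave no adjusted p for Zfp459. Of the refits with an adjusted p, only that of Erich3 with DESeq2 passed the threshold. No paired analysis was possible because replicate numbers follow record order and pair no libraries. Levels below the edge at 2 reads per base cannot be read from the table.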
